A study of Mus musculus with 12 samples.

Results

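The genes described here are 8 members of the MHC class II presentation pathway, H2-Aa, H2-Ab1, H2-Eb1, Cd74, H2-DMa, H2-DMb1, H2-Oa and Ciita, found by gene symbol or Ensembl identifier among the 38924 genes counted in mouse T cells. All 8 were among the 13811 genes that passed the filter on low counts. MHC class II molecules carry peptides from endocytosed proteins to the surface of antigen-presenting cells, where CD4+ T cells read them. The alpha and beta chains assemble with the invariant chain, which fills the peptide groove until it is degraded, and H2-DM and H2-O then edit which peptides stay bound. In mice the pathway is best known from B cells, dendritic cells and macrophages, and resting mouse T cells are known for making little or no class II.

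RNA was sequenced from splenic T cells of young adult C57BL/6 mice, either wild-type (WT) or homozygous for the Goldenticket allele of STING (STINGgt/gt), a point mutation that removes STING function and that the labels call a knockout. The cells were labelled CD4+ T cells. They had been sorted as naive cells, expanded with antibodies to CD3 and CD28, rested, and then kept for 16 h in the solvent DMSO or in CMA (10-carboxymethyl-9-acridanone), an agonist of mouse STING that enters cells. There were 3 libraries in each of the 4 groups: WT with DMSO, WT with CMA, STINGgt/gt with DMSO and STINGgt/gt with CMA. The study describes its sequencing replicates as biological. The labels do not say whether the libraries of a group came from separate mice, and the p-values measure the spread between these libraries. The comparisons ask what CMA does to these transcripts and whether this requires STING.

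Each library held between 27414450 and 43784910 reads on genes. Levels are given as CPM, the count of a gene relative to the total of its library, scaled by the trimmed mean of M-values (TMM), and folds are log2 fold changes from the quasi-likelihood test of edgeR, with p-values adjusted over all 13811 genes and called at 0.05. Tmem173, which encodes STING, lay between 168 and 184 CPM in the STINGgt/gt libraries, between 183 and 190 CPM in WT with DMSO and between 296 and 316 CPM in WT with CMA; because the allele is a point mutation, its RNA does not check the labels. T cell markers were high in every library, with Cd28 between 641 and 818 CPM and Cd5 between 515 and 656 CPM. Of 8 such markers, 5 were lower and 1 higher in WT with CMA than with DMSO, where 37.4% of all genes tested were called lower and 33% higher, and their summed level was between 2984 and 2994 CPM there, against 3225 to 3318 CPM with DMSO; the part of this in the changes with CMA was not tested. B cell markers were present too, and their values stand beside the results they move with.

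Promoters of the class II genes are known for a shared module upstream of the start site, in which an X box is bound by the RFX complex and a Y box by NF-Y, and to which CIITA is recruited. The windows are shown because the members that hold this module did not respond alike. RefSeq promoter windows, from 250 bases before to 50 bases after the start site on build GRCm38.p6, were given for 5 of the 8 members: H2-Aa, H2-Eb1, H2-DMa, H2-DMb1 and H2-Oa. Windows were read 5′ to 3′ on the gene's strand, and capitals mark the Y box letters TGATTGG, an inverted CCAAT, and the letters GNAAC of the X box upstream of it. Both motifs were chosen after the sequences had been seen, and both strands were searched. H2-Aa lies at chr17:34287774-34288073 on the minus strand, and the other 3 members shown lie on the plus strand, H2-Eb1 at chr17:34305617-34305916, H2-DMb1 at chr17:34152941-34153240 and H2-Oa at chr17:34092129-34092428. H2-Ob, the partner chain of H2-Oa, is at chr17:34238655-34238954 on the plus strand.
H2-Aa: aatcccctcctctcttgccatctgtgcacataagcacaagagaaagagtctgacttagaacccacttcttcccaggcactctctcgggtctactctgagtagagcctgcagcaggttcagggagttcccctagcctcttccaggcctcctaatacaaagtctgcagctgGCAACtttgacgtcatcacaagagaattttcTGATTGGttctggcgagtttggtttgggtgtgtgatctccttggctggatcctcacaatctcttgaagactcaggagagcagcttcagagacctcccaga
H2-Eb1: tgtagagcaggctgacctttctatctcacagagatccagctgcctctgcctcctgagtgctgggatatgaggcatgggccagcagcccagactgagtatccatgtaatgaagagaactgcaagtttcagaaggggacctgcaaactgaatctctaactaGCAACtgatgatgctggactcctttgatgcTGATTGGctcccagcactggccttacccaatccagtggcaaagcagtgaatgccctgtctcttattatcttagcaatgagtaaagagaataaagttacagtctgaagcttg
H2-DMb1: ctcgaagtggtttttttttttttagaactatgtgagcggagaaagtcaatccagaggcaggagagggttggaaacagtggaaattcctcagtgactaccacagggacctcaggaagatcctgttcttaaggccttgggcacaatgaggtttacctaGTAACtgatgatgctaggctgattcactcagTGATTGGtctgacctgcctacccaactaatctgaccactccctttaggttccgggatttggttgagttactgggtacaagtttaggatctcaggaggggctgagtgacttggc
H2-Oa: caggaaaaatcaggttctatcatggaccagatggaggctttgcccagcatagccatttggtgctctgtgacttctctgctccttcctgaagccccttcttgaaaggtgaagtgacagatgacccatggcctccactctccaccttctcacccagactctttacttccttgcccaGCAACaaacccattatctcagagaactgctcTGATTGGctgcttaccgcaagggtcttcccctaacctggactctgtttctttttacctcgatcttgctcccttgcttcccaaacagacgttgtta
H2-Ob: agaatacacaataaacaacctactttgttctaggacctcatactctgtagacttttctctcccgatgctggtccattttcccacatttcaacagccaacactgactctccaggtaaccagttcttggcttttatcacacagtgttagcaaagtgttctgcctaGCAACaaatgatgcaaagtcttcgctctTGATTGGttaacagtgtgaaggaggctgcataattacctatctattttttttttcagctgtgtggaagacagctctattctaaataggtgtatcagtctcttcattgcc

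TGATTGG begins 50 bases before the start site in H2-Aa, 61 in H2-Eb1, 63 in H2-DMb1 and 45 in H2-Oa. GNAAC begins 31 bases before the Y box in H2-Aa, H2-DMb1 and H2-Oa, 30 in H2-Eb1 and 28 in H2-Ob. Among all 32851 promoter windows of this length, 7.82% hold TGATTGG, 84.8% hold GNAAC and 0.91% hold GNAAC within 40 bases before TGATTGG on the same strand. The pair was found in 4 of the 5 members with a window. It was not in either of the 2 windows listed for H2-DMa, which lie before the start of that gene in the deposited annotation, so that only the absence of these letters from these windows can be stated. Of the further class II chains with a window, H2-Ob and H2-Eb2 held the pair, and H2-DMb2 held TGATTGG without it.

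The classical chains form the surface molecules that hold peptide. H2-Aa encodes the alpha chain of I-A (chromosome 17, 34282744 to 34287827, minus strand, GRCm38). It stood at 67.4, 67.5 and 62.0 CPM in WT with DMSO, 65.3, 69.0 and 74.5 CPM in WT with CMA, 34.4, 35.4 and 36.9 CPM in STINGgt/gt with DMSO, and 30.5, 34.9 and 30.8 CPM in STINGgt/gt with CMA. The 6 WT libraries lay above the 6 STINGgt/gt libraries, and the DMSO and CMA groups overlapped within each genotype.

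H2-Ab1 encodes the beta chain of I-A (chromosome 17, 34263209 to 34269418, plus strand). Its level was 133, 141 and 116 CPM in WT with DMSO and 92.9, 101 and 98.7 CPM in WT with CMA. In STINGgt/gt it was 75.8, 81.0 and 83.4 CPM with DMSO and 67.6, 68.3 and 71.7 CPM with CMA. In both genotypes all 3 CMA libraries were below all 3 DMSO libraries.

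H2-Eb1 encodes the beta chain of I-E (chromosome 17, 34305883 to 34316199, plus strand), whose alpha chain partner is listed as H2-Ea-ps, with at most 1 count in any library. Values of H2-Eb1 were 61.5, 62.8 and 54.6 CPM in WT with DMSO, 61.9, 61.2 and 63.5 CPM in WT with CMA, 30.6, 30.1 and 30.2 CPM in STINGgt/gt with DMSO, and 28.3, 29.3 and 27.7 CPM in STINGgt/gt with CMA. The genotypes were separated by a wide gap, while CMA moved the level little in either.

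Cd74, the invariant chain (chromosome 18, 60803848 to 60812646, plus strand), was the most abundant member. It measured 264, 290 and 268 CPM in WT with DMSO and 566, 603 and 607 CPM in WT with CMA. In STINGgt/gt it measured 175, 161 and 170 CPM with DMSO and 170, 158 and 171 CPM with CMA. Only the WT libraries with CMA stood apart from the libraries of their genotype with DMSO.

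Peptide editing is carried out by H2-DM, which removes the invariant chain fragment and weakly bound peptides, and by H2-O, which restrains H2-DM. H2-DMa (chromosome 17, 34135182 to 34139101, plus strand), the alpha chain of H2-DM, was at 32.7, 37.3 and 30.6 CPM in WT with DMSO, 41.4, 47.7 and 43.5 CPM in WT with CMA, 32.8, 34.4 and 37.2 CPM in STINGgt/gt with DMSO, and 33.9, 33.9 and 34.0 CPM in STINGgt/gt with CMA. Its WT and STINGgt/gt libraries overlapped with DMSO.

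H2-DMb1 (chromosome 17, 34153072 to 34160223, plus strand), a beta chain of H2-DM, stood at 6.59, 8.45 and 6.00 CPM in WT with DMSO, 6.25, 7.37 and 6.96 CPM in WT with CMA, 3.07, 3.50 and 4.23 CPM in STINGgt/gt with DMSO, and 3.51, 3.84 and 3.20 CPM in STINGgt/gt with CMA. The genotypes did not overlap and the treatments did. H2-DMb1 and H2-DMb2 are closely similar copies, so reads that match both could not be counted for either and the share of each is uncertain.

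H2-Oa (chromosome 17, 34092340 to 34095234, plus strand), the alpha chain of H2-O, was at 11.6, 11.7 and 9.82 CPM in WT with DMSO and 19.8, 19.8 and 19.0 CPM in WT with CMA. Its STINGgt/gt values were 6.52, 7.52 and 7.78 CPM under DMSO, next to 7.37, 6.96 and 7.30 CPM under CMA. Like Cd74, it was higher in WT with CMA than in any other library.

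Ciita (chromosome 16, 10488178 to 10527564, plus strand) encodes the transactivator on which class II transcription depends. It was counted at 8.59, 7.78 and 8.21 CPM in WT with DMSO, 6.11, 6.60 and 7.50 CPM in WT with CMA, 4.69, 5.72 and 4.42 CPM in STINGgt/gt with DMSO, and 4.82, 5.74 and 6.08 CPM in STINGgt/gt with CMA. All 6 WT libraries were above all 6 STINGgt/gt libraries, by a narrow margin with CMA. H2-Eb1 and H2-Oa overlap antisense genes, and Ciita overlaps Dexi on the opposite strand; the strand setting of the counting is not given in the sources used here, so reads of these partners may be included.

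**Figure D1:**
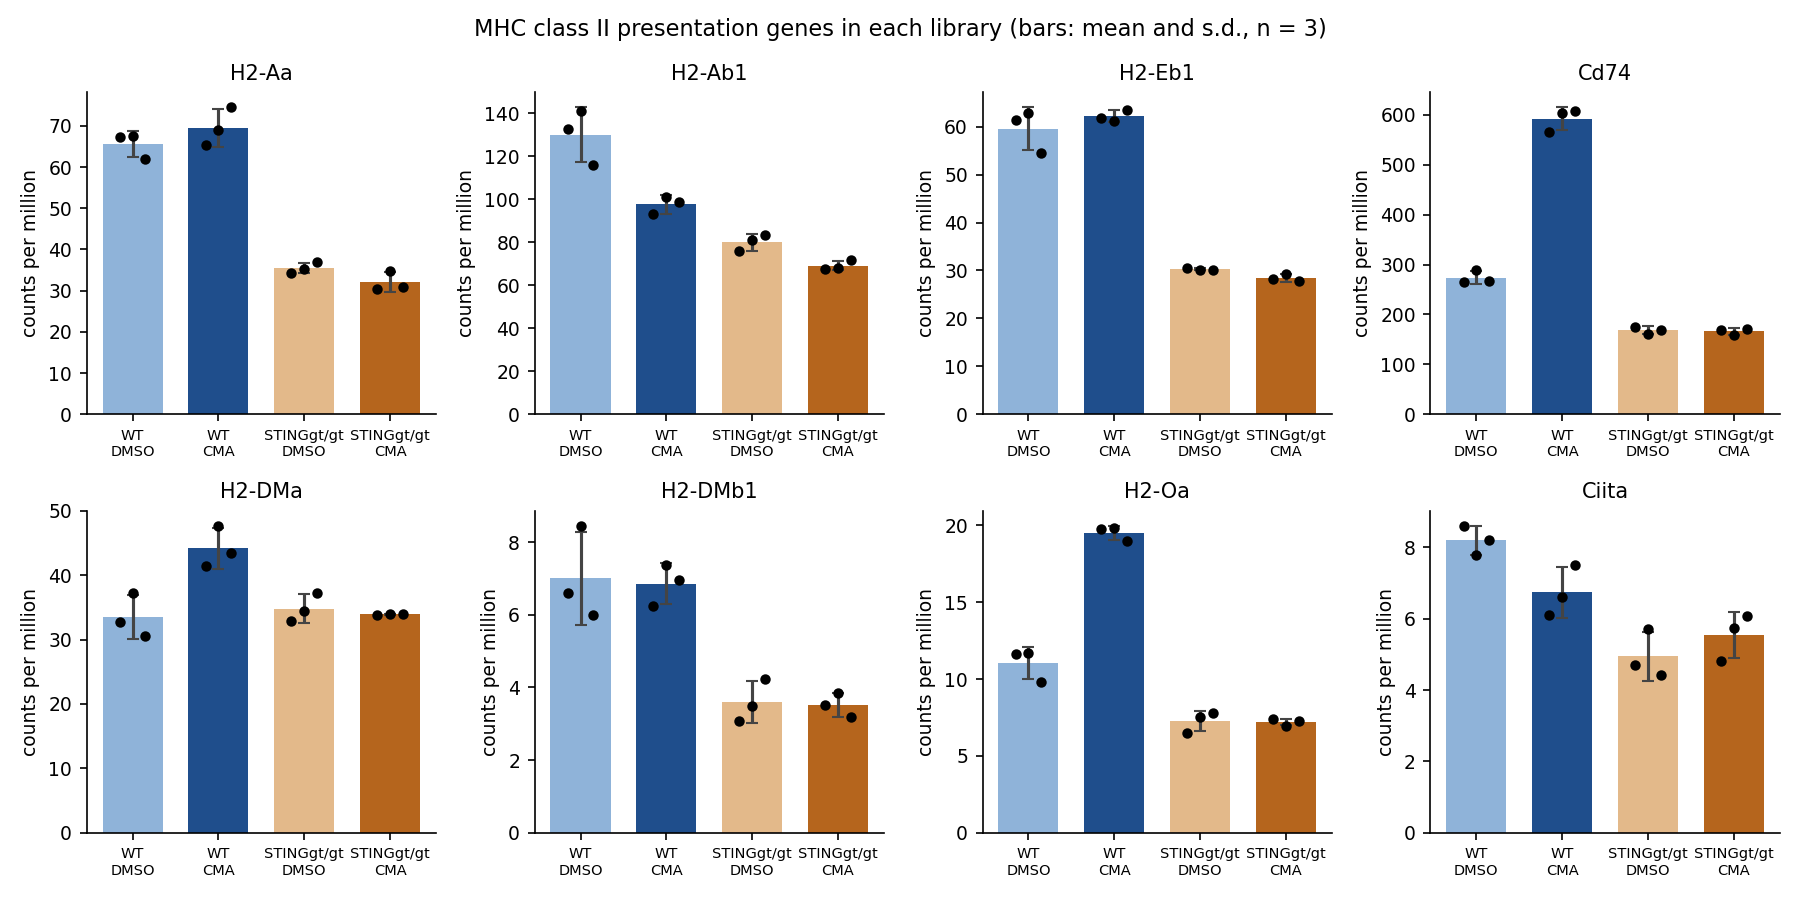
CPM of the 8 class II genes in each of the 12 libraries, with 1 panel per gene and its own linear axis from 0; points are libraries, bars the group mean and error bars the s.d. of 3 libraries. Cd74 and H2-Oa stand apart in WT with CMA, and H2-DMa has similar levels in both genotypes with DMSO.

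For a comparison between genes, CPM was divided by the length of the longest protein-coding transcript of each gene. In WT cells with DMSO the order was Cd74 at 194 ± 9.67 CPM per kilobase (mean ± s.d., n = 3), H2-Ab1 at 107 ± 10.5, H2-Aa at 58.2 ± 2.80, H2-Eb1 at 35.7 ± 2.65, H2-DMa at 16.7 ± 1.72, H2-Oa at 10.2 ± 0.97, H2-DMb1 at 4.99 ± 0.91 and Ciita at 1.36 ± 0.068 CPM per kilobase. No neighbours in this order overlapped over their libraries, in WT with DMSO or with CMA. With these lengths the order was the same in all 4 groups, and in STINGgt/gt only H2-Eb1 and H2-DMa overlapped. The place of H2-Aa rests on the length used, because its longest transcript of any type keeps an intron: with that length, or with merged exons, H2-Aa fell to rank 4 or 5 and H2-Eb1 took rank 3. The order then differed between groups: with merged exons H2-DMa was at rank 6, after H2-Oa at rank 5, in WT with CMA, and at rank 4 in STINGgt/gt.

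CMA changed the class II genes of WT cells in different directions. Cd74 rose by a log2 fold change of 1.11 (SE 0.050, 95% interval 1.01 to 1.22, edgeR adjusted p = 7.26e-12), a 2.16-fold change. H2-Oa rose by 0.83 (SE 0.078, edgeR adjusted p = 7.57e-08) and H2-DMa by 0.40 (SE 0.071, edgeR adjusted p = 8.89e-05). H2-Ab1 fell, with a log2 fold change of -0.41 (SE 0.063, edgeR adjusted p = 1.9e-05), while its partner H2-Aa did not pass the test at 0.09 (95% interval -0.04 to 0.21). H2-Eb1 at 0.06 (95% interval -0.04 to 0.17) and H2-DMb1 at -0.02 (95% interval -0.30 to 0.25) did not pass either.

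Ciita was lower with CMA in WT, with a log2 fold change of -0.28 (SE 0.11, edgeR adjusted p = 0.0306). That call was lost in 7 of 20 alternatives, among them those without WT DMSO replicate 1 (adjusted p = 0.102) or 3 (0.0536) and without WT CMA replicate 1 (0.135) or 2 (0.07), over a range of adjusted p from 0.0144 to 0.135 by edgeR, DESeq2 or limma.

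Thus 3 of the 8 members were higher and 2 lower, in a comparison in which 33% of all genes tested were called higher and 37.4% lower. The median log2 fold change was 0.07 over the members and -0.04 over all genes tested. A share of 5 in 8 called is near the background of 70.4% called in either direction, so the count itself does not set these genes apart.

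In STINGgt/gt cells none of the 8 members was called by edgeR, where 1.4% of all genes were called. At an unadjusted p under 0.05, 2 members passed in the edgeR fit, H2-Ab1 and H2-Aa, as did 1790 of all 13811 genes. H2-Ab1 had a log2 fold change of -0.21 (95% interval -0.34 to -0.08, edgeR adjusted p = 0.137). It was called in 5 of 20 alternatives. Among them were the replicate block (adjusted p = 0.0441) and those without WT DMSO replicate 2 (0.0254) or 3 (0.0143). Adjusted p lay between 0.00514 and 0.357 over edgeR, DESeq2 and limma. Fitted to all 4 groups, DESeq2 and limma called none of the 8. Cd74 was at -0.02 (95% interval -0.13 to 0.08) and H2-Oa at -0.01 (95% interval -0.20 to 0.18). All 3 CMA libraries lay below all 3 DMSO libraries for H2-Ab1 and H2-Eb1, as they did for 11.3% of all genes.

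**Figure D2:**
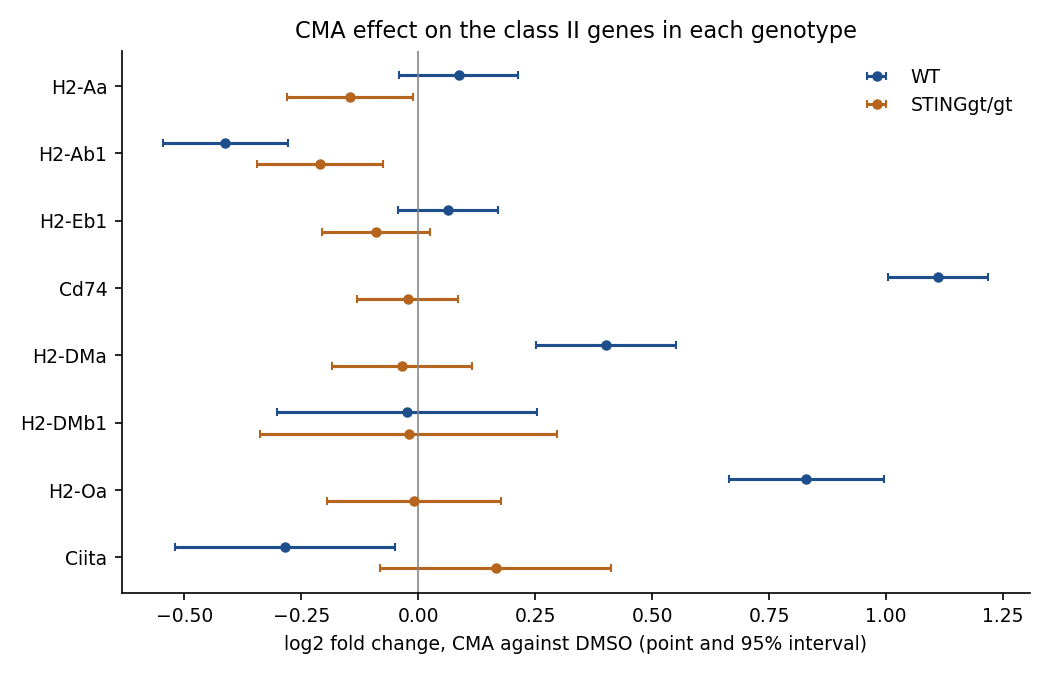
Log2 fold change of CMA against DMSO for each class II gene, with WT in blue and STINGgt/gt in brown; points are edgeR estimates and bars 95% intervals. In WT, Cd74 and H2-Oa lie far to the right and H2-Ab1 and Ciita to the left of 0, while the STINGgt/gt estimates lie between -0.21 and 0.17.

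The difference of the CMA effect between the genotypes was tested directly. It was 1.13 for Cd74 (SE 0.071, edgeR adjusted p = 1.12e-09), 0.84 for H2-Oa (SE 0.12, edgeR adjusted p = 1.37e-05) and 0.44 for H2-DMa (SE 0.10, edgeR adjusted p = 0.00134). These 3 kept their call in all 19 alternatives. H2-Aa at 0.23 (edgeR adjusted p = 0.0311) and Ciita at -0.45 (edgeR adjusted p = 0.0243) also passed, but each lost its call in 6 of the 19.

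For H2-Aa, library-size scaling ended the call (adjusted p = 0.0583), as did leaving out WT CMA replicate 3, STINGgt/gt DMSO replicate 2 or 3, or STINGgt/gt CMA replicate 1 or 3. For Ciita it was lost without WT DMSO replicate 1, WT CMA replicate 1, STINGgt/gt DMSO replicate 1 or 3, or STINGgt/gt CMA replicate 2 or 3. Adjusted p reached 0.0909 for H2-Aa and 0.0757 for Ciita in these fits, and was as low as 0.0058 and 0.00683 over the alternatives of each, by edgeR, DESeq2 or limma.

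The interval of the difference ran from -0.39 to -0.01 for H2-Ab1 (edgeR adjusted p = 0.062), from -0.003 to 0.31 for H2-Eb1 and from -0.43 to 0.42 for H2-DMb1, so that none of these 3 passed. H2-Ab1 was called in 4 of 19 alternatives, among them the replicate block (adjusted p = 0.0275) and that without WT DMSO replicate 3 (0.0025). Its adjusted p lay between 0.0025 and 0.178 by edgeR, DESeq2 or limma. H2-Eb1 was called in 3, among them that without WT DMSO replicate 2 (0.0269), with an adjusted p between 0.0238 and 0.173 by the same tools. With 4 members higher and 1 lower, the background was 27.2% of all genes higher and 31.6% lower, or 58.8% in either direction.

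Because partner chains must pair one to one, ratios of CPM per kilobase were compared within each library. The ratio of H2-Oa to H2-Ob was 1.18, 1.28 and 1.15 in the WT libraries given DMSO, and it reached 3.80, 3.61 and 3.39 in those given CMA. In STINGgt/gt it stayed between 1.09 and 1.44 in the 6 libraries. Both chains contributed to the shift in WT: H2-Ob, whose promoter window holds the same pair of motifs as that of H2-Oa, fell by 0.76 on the log2 scale (edgeR adjusted p = 3.7e-07).

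Cd74 relative to the mean of the 3 classical chains was 2.91 ± 0.19 (mean ± s.d., n = 3) in WT with DMSO and 7.02 ± 0.059 in WT with CMA. It was 3.11 ± 0.22 and 3.45 ± 0.21 in STINGgt/gt with DMSO and with CMA. H2-Ab1 relative to H2-Aa went from 1.84 ± 0.10 to 1.31 ± 0.068 in WT, and the ratio was 2.10 ± 0.043 and 2.02 ± 0.18 in STINGgt/gt.

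H2-DMa relative to the sum of H2-DMb1 and H2-DMb2 was 0.93 ± 0.036 in WT with DMSO and 1.52 ± 0.084 with CMA, against 1.60 ± 0.023 and 1.68 ± 0.13 in STINGgt/gt. On this ratio it was WT with DMSO that stood apart from the other 3 groups. In WT each of these 4 ratios gave p = 0.1 in a 2-sided exact permutation test, which is the smallest that 3 libraries against 3 allow, and in STINGgt/gt p lay between 0.2 and 0.8; adjusted over the 8 comparisons the smallest was 0.2. The size of each ratio depends on the transcript lengths used, as does the fold change of those with several genes below the line.

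**Figure D3:**
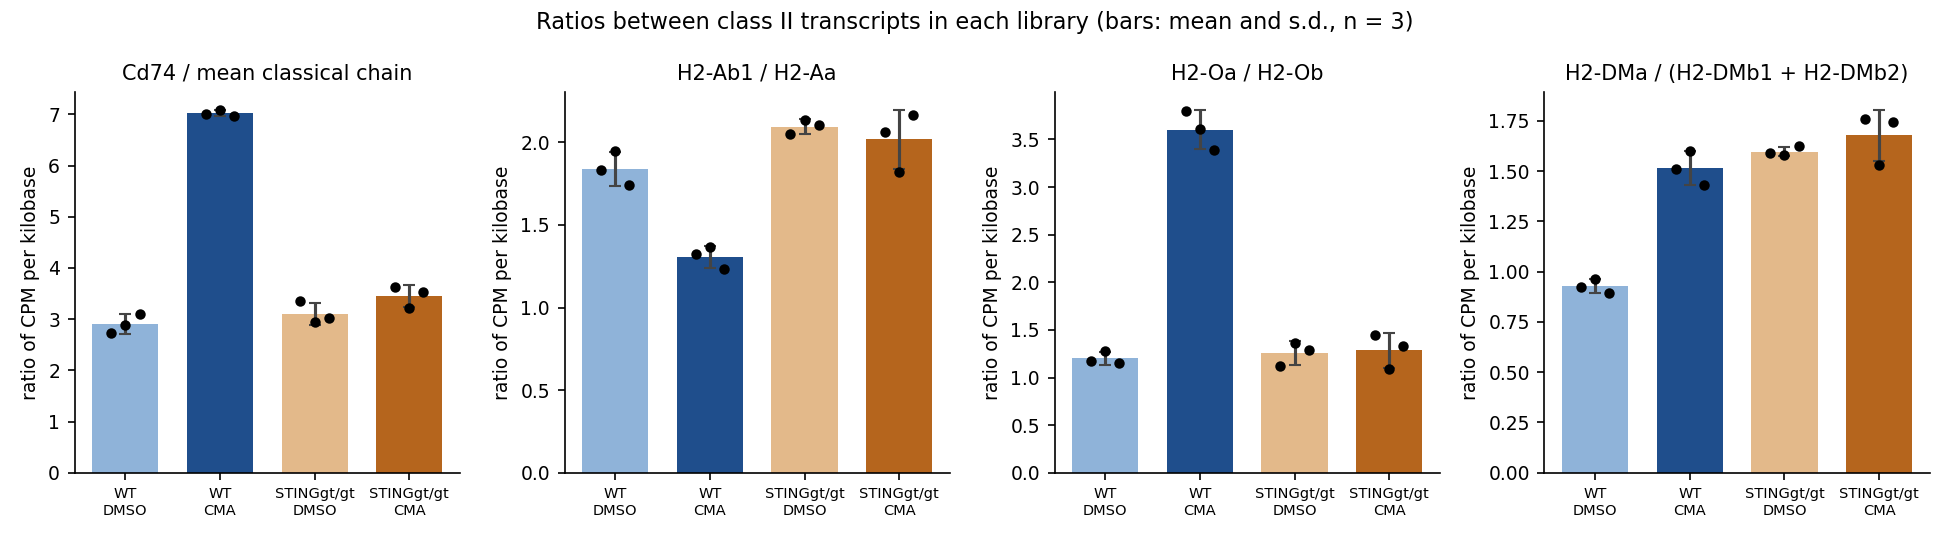
Ratios of CPM per kilobase between class II transcripts in each library, on linear axes from 0; points are libraries, bars the mean and error bars the s.d. of 3 libraries. WT with CMA stands apart for Cd74, H2-Ab1 and H2-Oa, and WT with DMSO for H2-DMa, whose ratio there was 0.93 against 1.52 to 1.68 in the other groups.

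Without CMA, 7 of the 8 members were already higher in WT than in STINGgt/gt, in a comparison in which 22.9% of all genes were called higher in WT and 42.7% in either direction. H2-Eb1 led with a log2 fold change of 0.97 (SE 0.053, edgeR adjusted p = 4.15e-10), followed by H2-DMb1 at 0.96 (SE 0.14), H2-Aa at 0.88 (SE 0.062), Ciita at 0.73 (SE 0.11), Cd74 and H2-Ab1 at 0.70 each and H2-Oa at 0.60 (SE 0.086). The largest adjusted p among these 7 was 8.3e-05 by edgeR. H2-DMa did not pass the test at -0.06 (95% interval -0.21 to 0.10). The median over the members was 0.71 and that over all genes tested 0.00.

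With CMA all 8 members were higher in WT, against a background of 37% of genes higher and 73.5% called in either direction. The log2 fold change was 1.83 for Cd74 (SE 0.052, edgeR adjusted p = 1.26e-14), 1.44 for H2-Oa, 1.13 for H2-Eb1, 1.12 for H2-Aa, 0.96 for H2-DMb1, 0.50 for H2-Ab1, 0.38 for H2-DMa and 0.28 for Ciita. For Ciita the edgeR adjusted p was 0.0376, and the call was lost under library-size scaling (0.0842) and without WT CMA replicate 2 (0.0699) or 3 (0.176) or STINGgt/gt CMA replicate 1 (0.154), with a lowest value of 0.0178 over its alternatives. Both genotype comparisons share libraries with the CMA comparisons and are not independent of them.

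B cell markers moved with genotype in the same libraries, and in bulk RNA fewer cells of a type and less RNA per cell cannot be told apart. Of 9 B cell markers found, 8 were higher in WT than in STINGgt/gt with DMSO by edgeR, with a median log2 fold change of 1.06, where 22.9% of all genes tested were called higher. Their summed level was between 777 and 843 CPM in WT with DMSO, 868 and 958 CPM in WT with CMA, 367 and 376 CPM in STINGgt/gt with DMSO, and 386 and 398 CPM in STINGgt/gt with CMA. Under CMA 8 of the 9 were higher in WT than in STINGgt/gt and 1 lower by edgeR, with a median of 1.58. The background there was 37% of all genes tested called higher and 36.5% lower. None of the 9 was at 0: Ighm, the heavy chain of immunoglobulin M, lay between 202 and 523 CPM.

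The genotype difference with DMSO was 1.27 for Ighm, next to 0.60 to 0.97 for the 7 members called. Fcer2a, the low-affinity receptor for immunoglobulin E, was the exception at 0.01. Under CMA it was the marker lower in WT, at -0.61, with 28.3 to 30.3 CPM against 43.6 to 45.1 CPM in STINGgt/gt. These B cell marker counts come from cells taken after the sort of naive T cells described in the methods. The part of B cell RNA in the genotype difference of the class II genes was not tested.

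In the CMA comparison in WT, 6 of the 9 B cell markers were higher and 1 lower, where 33% of all genes tested were called higher and 37.4% lower. Ighm did not pass the test at -0.04. Of markers named after their values were seen, Ms4a1, which encodes CD20, was higher by 1.12, Cd79b, a chain of the B cell receptor complex, did not pass the test at -0.03, and Fcer2a was lower by 0.51 on the log2 scale. The median over the 9 B cell markers was 0.27, and Fcer2a was the 1 called lower. Cd74 was at 1.11 and H2-Ab1 at -0.41 in the same comparison. The part of the B cell markers in those values was not tested. In STINGgt/gt none of the 9 was called with CMA, where 1.4% of all genes tested were called.

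**Figure D4:**
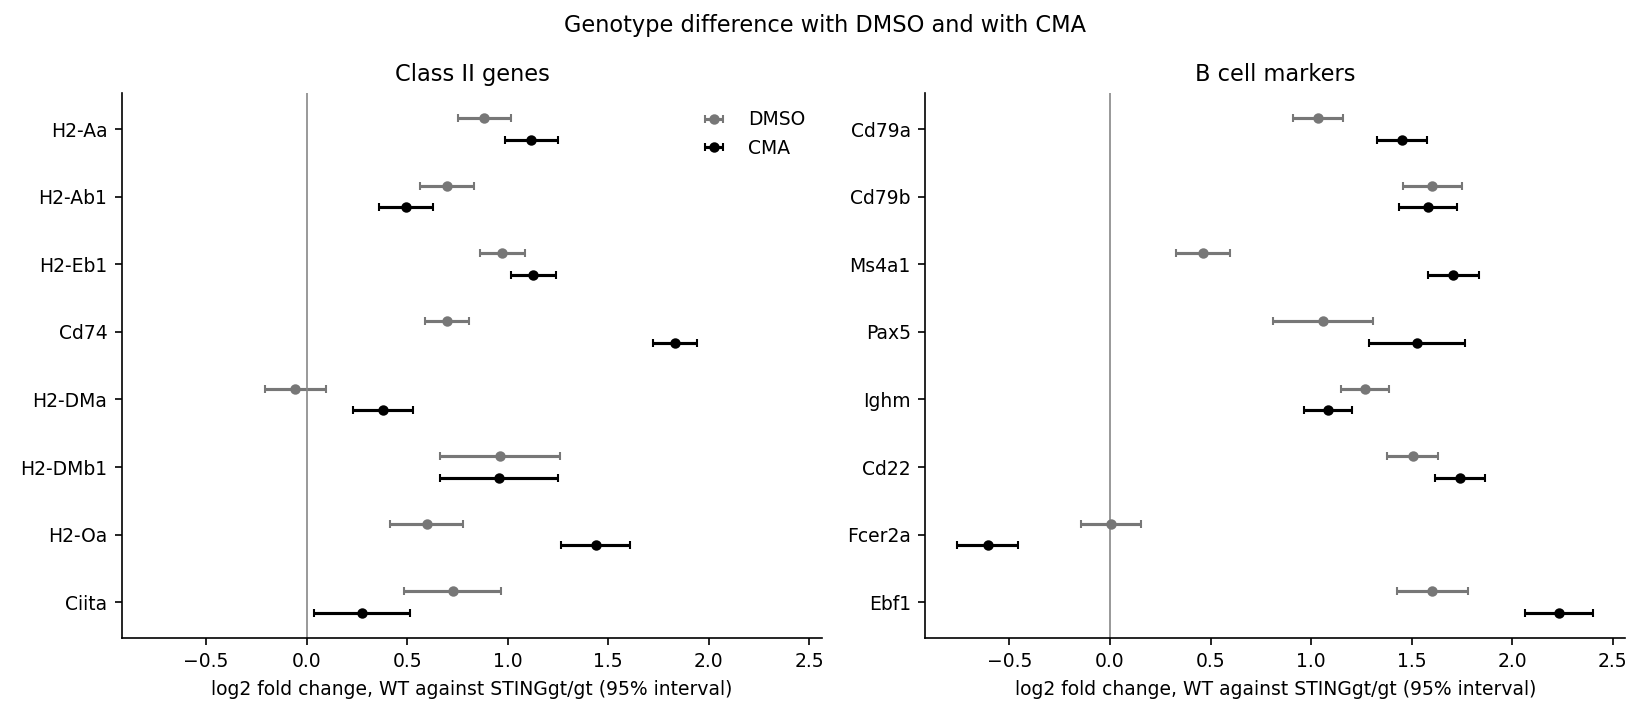
Log2 fold change of WT against STINGgt/gt for the 8 class II genes and for 8 of the 9 B cell markers tested, with DMSO in grey and with CMA in black; points are edgeR estimates and bars 95% intervals. Most of both sets lie to the right of 0 in both treatments, with H2-DMa (-0.06) and Fcer2a (0.01) near 0 with DMSO. Fcer2a lies to the left of 0 with CMA (-0.61).

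Markers of other presenting cells were mostly low. With DMSO, 5 of 5 macrophage and monocyte markers tested and 3 of 4 dendritic markers tested were higher in WT than in STINGgt/gt by edgeR, with medians of 2.25 and 1.34, where 22.9% of all genes tested were called higher; the dendritic marker that did not pass was Zbtb46 (-0.14, edgeR adjusted p = 0.194). Picked after their values were seen, Lyz2 of the macrophage list was at 2.71 and Flt3 of the dendritic list at 1.93. Under CMA, 4 of 5 macrophage and monocyte markers and 3 of 4 dendritic markers were higher in WT than in STINGgt/gt. The medians were 1.39 and 1.75, where 37% of all genes tested were called higher. The part of these lists in the difference of the class II genes between genotypes was not tested. Xcr1, Siglech, Clec9a and Cd209a, which define dendritic cell types, had at most 1 count in any library, below the floor of 3 counts. The dendritic list summed to between 36.2 and 38.8 CPM in WT with DMSO, 81.1 and 91.5 CPM in WT with CMA, and 18.1 and 21.3 CPM in STINGgt/gt, and its rise in WT lay largely in Zbtb46, a transcription factor, which went from between 7.54 and 9.43 to between 53.9 and 58.1 CPM. Batf3, the next in level, lay between 5.95 and 20.6 CPM. With Zbtb46 at 2.76 and Batf3 at -0.47 in WT with CMA, this list moved in both directions.

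Of 8 macrophage and monocyte markers, Cst3, which most cells use, made up most of the summed level of 33.3 to 61.4 CPM, with 31.9 to 58.2 CPM. In WT with CMA 1 of the 5 tested was higher and 2 lower, against 33% and 37.4% of all genes tested. Cst3 rose by 0.53, from between 36.1 and 40.7 to between 53.3 and 58.2 CPM, and the summed level went from between 44.4 and 48.4 to between 57.4 and 61.4 CPM, while Itgam fell from between 3.06 and 3.73 CPM to 1.2 CPM or less. Fcgr1 and Csf1r were at 0 in at least 1 library, and Fcgr1 had at most 6 counts in any. Eomes, between 17.0 and 38.5 CPM, and Cd8b1, between 14.02 and 29.58 CPM, led the CD8 and natural killer list, which summed to between 54.2 and 79.5 CPM. Of these 6 markers, 4 were higher in WT than in STINGgt/gt with DMSO and 1 lower, against 22.9% and 19.8% of all genes tested, and the lower one was Eomes (-0.79, edgeR adjusted p = 1.46e-05). In WT with CMA, 1 of the 6 was higher and 3 lower, with a median of -0.48, against 33% and 37.4% of all genes tested. Under CMA, 3 were higher and 3 lower in WT than in STINGgt/gt, against 37% and 36.5% of all genes tested. The part of these cells in the class II values was not tested.

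Beyond the 8 members, 33 of 35 further genes of the pathway could be tested. In WT with CMA 17 were higher and 9 lower, with a median of 0.19, against 33% and 37.4% of all genes tested. In STINGgt/gt 2 were higher and 1 lower, where 1.4% of all genes were called. The 3 called in STINGgt/gt were Irf1 (0.29, edgeR adjusted p = 0.0038), Irf8 (0.21, edgeR adjusted p = 0.024) and Ifngr2 (-0.27, edgeR adjusted p = 0.024), of which Irf8 and Ifngr2 moved the opposite way in WT, at -0.56 and 0.69. In the difference of the CMA effect 16 were higher and 9 lower, against 27.2% and 31.6% of all genes.

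Among the 3 other class II chains tested, 2 were lower in WT with CMA and none higher, against 37.4% and 33% of all genes tested. H2-Ob, the beta chain of H2-O, fell from between 20.96 and 24.24 to between 12.8 and 13.7 CPM, and H2-DMb2 from between 18.9 and 19.6 to between 13.6 and 15.1 CPM, a log2 fold change of -0.43. H2-Eb2 did not pass the test at -0.14. All 3 were higher in WT than in STINGgt/gt with DMSO, by 0.65 to 0.76, where 22.9% of all genes tested were higher.

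Peptide supply covers the proteases and the thiol reductase that cut and open proteins in the endosome: 3 of 8 were higher in WT with CMA, 1 was lower and 4 did not pass, near the 33% of all genes tested that were higher and below the 37.4% that were lower. Ctsb, or cathepsin B, rose by 0.32 and Ctsz, or cathepsin Z, by 0.54, while Ctsd, or cathepsin D, did not pass the test at -0.08. Ctss, or cathepsin S, the protease known for trimming the invariant chain, and Ifi30, the thiol reductase, were picked after their values were seen. Ctss rose by 0.92, from between 81.8 and 88.5 to between 152 and 168 CPM, and Ifi30 fell by 0.76, from between 88.7 and 94.7 to between 53.5 and 55.4 CPM. With DMSO, 7 of the 8 were higher in WT than in STINGgt/gt and 1 lower, with a median of 0.50. The background was 22.9% of all genes tested higher and 19.8% lower. The lower one was Ctss, by 0.18.

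Of 12 regulators of transcription, 8 were higher in WT with CMA and 3 lower, where 33% of all genes tested were called higher and 37.4% lower. Nlrc5, the relative of Ciita that acts on class I genes, rose by 1.32, from between 194 and 227 to between 524 and 534 CPM. Irf8, a factor of the interferon regulatory family, was lower at -0.56. Nfyb, a subunit of NF-Y, which binds the Y box, fell by 1.18 on the log2 scale, from between 154 and 157 to between 63.6 and 71.8 CPM. Rfx5, a subunit of the RFX complex that binds the X box, picked after its values were seen, rose by 0.81. Of the remaining subunits, also picked afterwards, Rfxank was higher at 0.50 and Rfxap lower at -0.28 in RFX, and Nfya at 0.45 and Nfyc at 0.21 were higher in NF-Y, so that each complex held subunits that rose and subunits that fell. With DMSO, 3 of the 12 regulators were higher in WT than in STINGgt/gt and 5 lower, with a median of -0.10. The background was 22.9% of all genes tested higher and 19.8% lower.

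Interferon-gamma is the best-known inducer of class II, and 3 of its 5 listed inputs were higher in WT with CMA and 1 lower, against 33% and 37.4% of all genes tested. Ifngr1, the ligand-binding receptor chain, rose by 0.66 and Jak2 by 0.43, and Jak1 did not pass the test at -0.08. Ifng itself, picked after its values were seen, was at -0.73 in WT, from between 56.3 and 57.4 to between 30.9 and 36.3 CPM. In STINGgt/gt Ifng was at -0.29 with CMA and did not pass. It was higher in WT than in STINGgt/gt by 2.25 with DMSO (edgeR adjusted p = 1.05e-11) and by 1.80 with CMA. Of the 5 inputs, 3 were higher in WT with DMSO and 2 did not pass, where 22.9% of all genes tested were higher.

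Turnover at the surface is set by the ubiquitin ligase March1, which sends class II for degradation, and by Cd83, which opposes it. March1 was at 2.08 to 2.19 CPM in WT with DMSO and 0.185 to 0.599 CPM in WT with CMA, a log2 fold change of -2.44 (edgeR adjusted p = 1.9e-07). Its level in STINGgt/gt was 0.13 CPM or less in every library. Cd83 rose by 1.75 in WT, from between 88.0 and 94.1 to between 299 and 309 CPM, and March8, a related ligase, was lower at -0.36.

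Of the receptors that bind class II, Lag3, an inhibitory receptor, rose by 2.18 in WT, from between 183 and 212 to between 874 and 908 CPM, and Cd4 by 0.19. Neither was called in STINGgt/gt, at 0.11 and -0.05, where 1.4% of all genes tested were called.

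**Figure D5:**
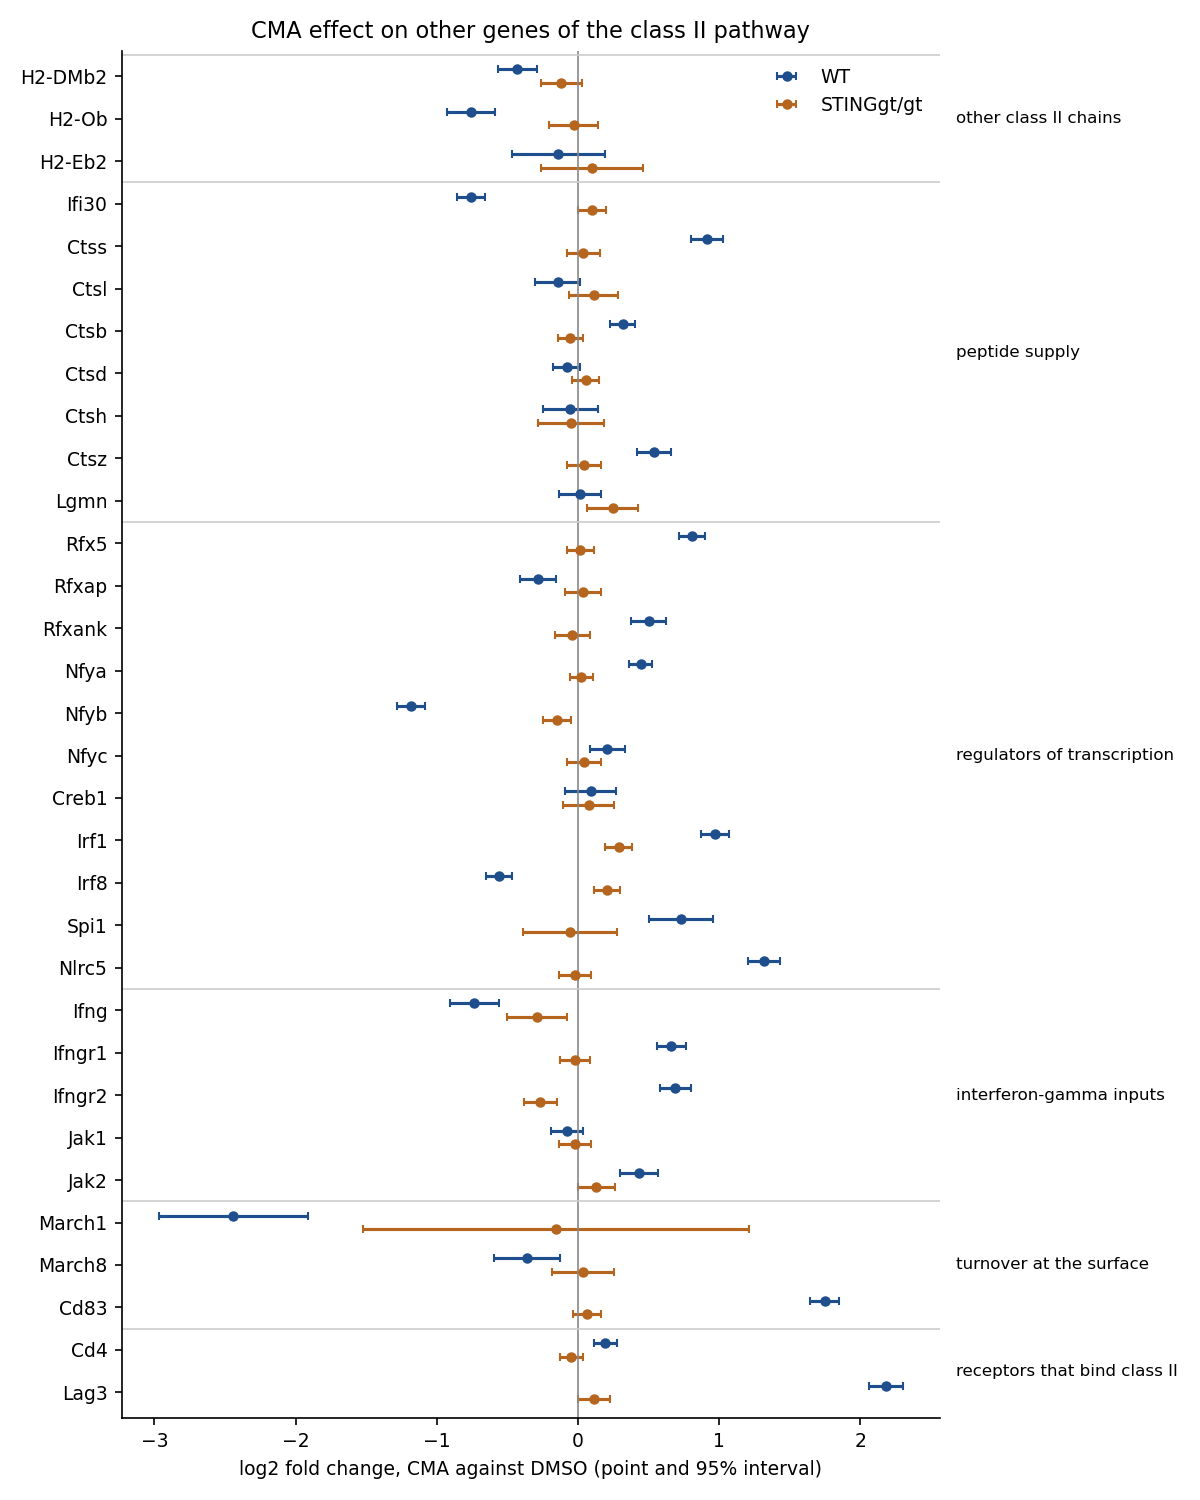
Log2 fold change of CMA against DMSO for 32 of the 33 further genes of the class II pathway tested, grouped by role, with WT in blue and STINGgt/gt in brown; points are edgeR estimates and bars 95% intervals. WT values range from -2.44 for March1 to 2.18 for Lag3, and STINGgt/gt values from -0.29 to 0.29.

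Across the 12 libraries, the genes most like the mean standardised log2 CPM of Cd74, H2-Aa, H2-Ab1 and H2-Eb1 among 11556 genes compared were Spred3 (Pearson r = 0.995), Il4ra (0.993), Pld3 (0.993), Sash3 (0.993) and H2-Q10 (0.992). The libraries fall into 4 groups, so these values describe shared group levels. Il4ra, a chain of the interleukin-4 receptor, was at 447 ± 6.17 CPM (mean ± s.d., n = 3) in WT with DMSO, 461 ± 17.1 CPM in WT with CMA, 305 ± 5.01 CPM in STINGgt/gt with DMSO and 294 ± 1.98 CPM in STINGgt/gt with CMA. Among the members outside that mean, r was 0.964 for H2-DMb1, 0.885 for H2-Oa, 0.785 for Ciita and 0.521 for H2-DMa. Among the B cell markers r was 0.990 for Cd79a, and further values were Cd22 (0.988), Cd79b (0.986), Ebf1 (0.970), Ighm (0.968) and Fcer2a (-0.629). H2-Q10, a class I gene, shares sequence with other class I genes, so its count is uncertain.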

How the data were processed

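Raw counts per gene were deposited by the authors for each of the 12 libraries, made from TruSeq Stranded mRNA libraries; the submitters' processing notes list cutadapt 1.3, STAR 2.4.0f1, HTSeq 0.6.1, RSEM 1.2.16 and build GRCm38. A table of normalised log2 values for 11921 genes was also deposited and was used in 1 alternative only. Between 27.8% and 30.3% of alignments were not unique and went uncounted, which lowers genes with near-identical copies. This share was 29.56% to 30.28% in WT with DMSO, 27.77% to 27.94% in WT with CMA and 28.09% to 29.04% in STINGgt/gt. The share on no annotated feature was 4.86% to 5.47%, 6.79% to 7.16% and 5.98% to 6.54% in the same order. The part of these shares in the results was not tested. Groups were taken from the labels. Counts were filtered with filterByExpr (13811 genes), scaled by TMM and fitted over all 12 libraries with edgeR 4.0.16 (R 4.3.3), with p-values adjusted by Benjamini-Hochberg. The test was checked on simulated counts for CMA in WT, where it recovered 180 of 200 genes changed 2-fold among 13581. Alternatives used DESeq2 1.42.0, limma 3.58.1, other scaling, other filters, only the 2 groups compared, a replicate block, and each library left out. Lengths came from GENCODE M21 and promoter windows from RefSeq (GRCm38.p6). CPM per kilobase used the longest protein-coding transcript. The members and gene lists were chosen with earlier results of these data known. Named genes were all 8 members, up to 3 of highest mean CPM in each pathway group, those with a called difference of the CMA effect over 2-fold, the 2 of highest mean CPM in each marker list and the 5 of most similar profile; others are said to be picked afterwards. Replicates differed by more than counting noise in every pair, so none was merged. The chi-square per degree of freedom between replicates was 9.34 to 27.7 in WT with DMSO and 2.52 to 6.39 in the other groups. One fit over all 12 libraries estimated the spread, and the part of this difference in the calls was not tested. Some genes of these lists are counted in the totals and are not reported here by name.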

Additional observations from a re-analysis of the deposited data

Results flagged for a closer look

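The CMA effect differed between the genotypes by an interaction term in edgeR for 5 of the 8 class II genes. On the log2 scale, WT minus STINGgt/gt, the difference was 1.13 for Cd74, 0.84 for H2-Oa, 0.44 for H2-DMa, 0.23 for H2-Aa and -0.45 for Ciita. With 58.8% of all genes called in the same test, such a difference is common in these libraries. For H2-Aa and Ciita neither genotype moved far on its own: H2-Aa was at 0.09 in WT and -0.15 in STINGgt/gt, and Ciita at -0.28 and 0.17.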

How the results depend on the processing

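Over all alternatives, 729 of 792 values of single genes kept their direction and their side of the threshold, 23 lost a call, 12 gained one and 28 changed sign. The number of members lower with CMA in WT went from 2 to 1 with DESeq2, with limma on the deposited log2 table and with at least 10 counts in every library, and lay between 1 and 2 when single libraries were left out. In STINGgt/gt the number lower went from 0 to 1 without a filter, with only the 2 groups compared and with the replicate block, and lay between 0 and 1 with a library left out. In the difference of the CMA effect the number lower went from 1 to 2 with library-size scaling, without a filter and with the replicate block, and lay between 0 and 2 with a library left out. The gene gained among those lower in STINGgt/gt and in the difference was H2-Ab1, and the gene lost in WT was Ciita; the cause was not tested. The number higher in the difference was 4 and lay between 3 and 5 over the alternatives: H2-Eb1 was added with limma on the deposited log2 table, with at least 10 counts in every library and without WT DMSO replicate 2. Over all genes, the calls for CMA in STINGgt/gt went from 61 higher and 132 lower to 268 and 388 with only the 2 groups compared, 176 and 257 if unfiltered, 130 and 233 under the replicate block, 123 and 200 by DESeq2, and lay between 14 and 180 higher and between 41 and 289 lower with a library left out. The most calls with a library left out came without WT DMSO replicate 2 (180 and 276) or 3 (169 and 289). Changes of sign were in values near 0. H2-DMb1 in WT was 0.0040 with DESeq2, 0.0238 with limma on the deposited table, 0.0191 with at least 10 counts and 0.0072 with only the 2 groups, and between -0.13 and 0.12 with a library left out. Its difference between genotypes was 0.0019 under the replicate block, 0.0021 by limma-voom, 0.0048 if unfiltered, 0.0239 by DESeq2, 0.0316 when each library had to hold 10 counts, 0.0538 from the deposited log2 values, and between -0.12 and 0.14 with a library left out. H2-Oa in STINGgt/gt was 0.0002 without a filter and between -0.0874 and 0.0377 with a library left out, where Cd74 lay between -0.0571 and 0.0106, H2-DMa between -0.0766 and 0.0132 and H2-DMb1 between -0.13 and 0.10. H2-DMa in WT against STINGgt/gt with DMSO lay between -0.15 and 0.0054 with a library left out. The correlation of deviations between same-numbered libraries ranged from 0.00195 to 0.132 between DMSO and CMA within a genotype and from -0.103 to 0.037 between genotypes, so the replicate numbers were not taken as pairs. The sample names share a first digit between same-numbered DMSO and CMA libraries of a genotype, except for STINGgt/gt replicate 2. No label says what that digit marks. The block was used for the number only. H2-DMb1 had 181 to 252 counts in WT with DMSO, and its intervals were the widest among the members in every comparison.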
